A study of Homo sapiens with 4 samples.

Results

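The 100 antisense genes described here are the most abundant of the genes whose symbol ends in -AS and a number, in RNA from H9 cells, an established line of human primed pluripotent stem cells. They were chosen from 1204 such symbols with a count, after 3 symbols (OIP5-AS1, GNAS-AS1 and EPB41L4A-AS1) had been set aside, by the mean over 4 libraries of the normalised read count (RPM, the count of a gene scaled to a common total per library). Of all genes, 33634 had a count. The 4 libraries were made with the bulk version of scMTR-seq, which reads poly(A) RNA and histone-marked DNA from the same fixed nuclei. Reverse transcription (RT) came before Tn5 tagmentation (Pre) or after it (Post). Both orders were run once on RNA alone (RNA only) and once with the DNA under H3K27me3 and H3K27ac profiled as well (RNA and DNA), which gives 4 conditions. All 4 conditions used H9 cells of 1 line with no treatment named, so they differ in the steps of the protocol and not in genotype. Each condition is 1 library, no difference has a replicate check, and no p-value is given. Intervals of a level, a share or the ratio of 1 gene are exact 95% intervals that cover counting error only. In bulk samples of this kind, fewer nuclei with an RNA and less RNA per nucleus cannot be told apart. The strand setting of the counting is not given in the sources used here, and without it reads of a gene and of its antisense partner cannot be told apart where they overlap.

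Antisense long noncoding RNAs are transcribed from the strand opposite to another gene, most often a protein-coding one. Some start inside or behind that gene and run back across its exons and introns, while others start beside its promoter and run the other way, so that both genes share 1 start region. Many are retained in the nucleus, and some are known to influence the gene they face, while for most no function is known. The partner on the other strand, named by the symbol before -AS, is called the sense gene here.

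Promoter windows were compared because in pairs that share a start region but do not overlap, reads of the 2 genes can be told apart even without strand. Reads of other genes can still be counted for such members. Exons of TPT1-AS1, UBA6-AS1 and UBL7-AS1 lie under exons of other opposite-strand genes over 884, 1891 and 2260 bases, and those of SUCLG2-AS1 over 0. RefSeq (build GRCh38.p14) held a window of 250 bases before to 50 bases after the start for 72 of the 100 members. The 4 members with a shared start and no overlap with the sense gene are shown first, followed by HDAC2-AS2 and VCAN-AS1, which have the highest mean RPM of all members and start inside their sense genes. Each sequence ends 50 bases into the antisense gene and leaves out bases of annotated coding exons. Capitals mark GGGCGG, the GC box bound by SP family factors, and CCAAT, searched on both strands.

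TPT1-AS1: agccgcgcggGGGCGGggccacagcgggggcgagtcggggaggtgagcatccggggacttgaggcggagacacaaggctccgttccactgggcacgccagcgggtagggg
UBA6-AS1: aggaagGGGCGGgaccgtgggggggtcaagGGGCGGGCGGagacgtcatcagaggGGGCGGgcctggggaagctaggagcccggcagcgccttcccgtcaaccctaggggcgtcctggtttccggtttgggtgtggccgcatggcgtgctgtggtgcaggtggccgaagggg
UBL7-AS1: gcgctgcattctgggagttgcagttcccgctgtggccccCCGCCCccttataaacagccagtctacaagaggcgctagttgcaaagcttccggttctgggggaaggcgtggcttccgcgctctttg
SUCLG2-AS1: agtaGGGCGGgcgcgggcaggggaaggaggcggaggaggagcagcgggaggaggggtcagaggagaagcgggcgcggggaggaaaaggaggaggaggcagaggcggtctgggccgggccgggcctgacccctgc
HDAC2-AS2: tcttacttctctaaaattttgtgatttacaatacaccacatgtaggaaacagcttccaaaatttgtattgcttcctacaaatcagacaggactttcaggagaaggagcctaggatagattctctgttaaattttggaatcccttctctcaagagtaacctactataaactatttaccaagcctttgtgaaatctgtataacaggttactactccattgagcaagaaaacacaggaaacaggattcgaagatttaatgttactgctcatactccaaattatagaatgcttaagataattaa
VCAN-AS1: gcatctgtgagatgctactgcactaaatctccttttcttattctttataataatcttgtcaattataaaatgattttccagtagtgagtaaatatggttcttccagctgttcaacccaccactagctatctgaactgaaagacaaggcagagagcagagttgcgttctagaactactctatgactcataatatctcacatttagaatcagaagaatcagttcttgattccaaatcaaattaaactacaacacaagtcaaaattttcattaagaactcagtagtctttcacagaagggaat

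These lie at chr13:45341285-45341394, chr4:67701156-67701327, chr15:74461189-74461314 and chr3:67654613-67654746, at chr6:113969451-113969750 on the plus strand, as the first 4 are, and at chr5:83562265-83562564 on the minus strand. The RefSeq start of VCAN-AS1 lies inside VCAN and not at the outermost start in GENCODE. A GC box stood in each of the 4 sequences from shared start regions, which were 61.1% to 74.6% G or C. Neither of the other sequences held a GC box or CCAAT. The whole window held 38 CG dinucleotides at TPT1-AS1, 23 at UBA6-AS1, 26 at UBL7-AS1 and 30 at SUCLG2-AS1, against 1 each at HDAC2-AS2 and VCAN-AS1. SEMA6A-AS1, the next member by mean RPM, is not shown because its start lies in an annotated coding exon. Its window held 15 and was 65.3% G or C, so HDAC2-AS2 and VCAN-AS1 do not stand for the members without a shared start. TATAAA stood in the windows of UBL7-AS1, HDAC2-AS2 and VCAN-AS1. Among the 12 members with a shared start and a window, 8 held a GC box (66.7%), 1 held CCAAT (8.33%) and 1 held TATAAA (8.33%). Among the 60 other members with a window, 28 held a GC box (46.7%), 24 held CCAAT (40%) and 5 held TATAAA (8.33%). Of all 35116 RefSeq windows of this length, 45% held a GC box, 34.6% held CCAAT and 11.5% held TATAAA. The median number of CG dinucleotides was 25 with a shared start, 19 in the other members and 14 over all windows. These groups go by GENCODE starts, while the windows sit at RefSeq starts, which can differ. LMCD1-AS1 is among the other members, but its window (8501609 to 8501908) covers the start of LMCD1 at 8501807. The only CCAAT with a shared start stood in the window of GABPB1-AS1 (50353924 to 50354223), while GABPB1 starts at 50355408. The groups thus do not cleanly separate shared from other start regions. A match of these letters is a description and not a binding site.

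By GENCODE release 44 (GRCh38), all 100 members were placed, 95 under the symbol in the files and 5 under a newer one (TMEM161B-AS1, COX10-AS1, UBA6-AS1, UBL7-AS1 and SUCLG2-AS1, now named as divergent transcripts). All 100 were annotated as lncRNA genes on the strand opposite to the sense gene, and 97 of the 99 distinct sense genes were protein-coding (DLGAP1 faces 2 members). GAS5, a snoRNA host gene, and CCDC144NL were annotated as lncRNA genes themselves. Exons of member and sense gene overlapped in 73 pairs, only the gene spans overlapped in 23, and 4 pairs had no overlap. The annotated starts lay at most 1000 bases apart in 15 pairs, here called a shared start, and in the 4 pairs without overlap they were 54 to 66 bases apart. The member lay wholly inside the sense gene in 13 pairs, and the sense gene lay inside the member in 18. Only 14 members had no exon under an exon of the opposite strand. Gene spans ran from 1.47 kb to 972 kb with a median of 90.8 kb, and merged exons from 0.187 kb to 35.2 kb with a median of 5.66 kb. Of the canonical transcripts, 44 of 100 carried AATAAA or ATTAAA, the signals for cleavage and polyadenylation, in the last 50 bases, against 46.1% of 18866 lncRNA genes and 77.4% of 20046 protein-coding genes.

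The levels of the members are a description, since the mean RPM chose them. HDAC2-AS2, which faces the gene of a histone deacetylase, was the most abundant by a wide margin. Its level was 696 RPM in the Pre library of RNA only and 708 with DNA profiled. In the Post libraries it was 524 RPM for RNA only and 701 with DNA profiled. It lies on chromosome 6 from 113969701 to 114471705 and starts inside HDAC2. The second member, VCAN-AS1, lies inside the gene of the matrix proteoglycan versican and stood, in the same order of libraries, at 298, 340, 248 and 345 RPM. SEMA6A-AS1, inside the gene of an axon guidance semaphorin, followed at 277, 288, 213 and 304 RPM. ALOX12-AS1, which spans the gene of a lipoxygenase, stood at 305, 303, 171 and 300 RPM. In these 4 members Post, RNA only was the lowest library. The intervals of the other 3 libraries overlapped for HDAC2-AS2 and ALOX12-AS1, while VCAN-AS1 was also lower in Pre, RNA only (287 to 309) than in both libraries with DNA profiled (328 to 352 and 333 to 356). The next 6, CCDC144NL-AS1, JAKMIP2-AS1, DIAPH2-AS1, STX18-AS1, USP2-AS1 and TTN-AS1, ranged from 106 RPM for STX18-AS1 in Post, RNA only to 284 RPM for CCDC144NL-AS1 in Pre, RNA only. The median member stood at 68.7, 69.6, 46.4 and 68.2 RPM in the 4 libraries. Every member was counted in every library, with 135 counts or more. SCN1A-AS1, SPAG5-AS1 and DHRS4-AS1 were the last inside the limit of 100, at a mean of 36.3, 36.1 and 35.2 RPM, and EP300-AS1, TCF4-AS1 and SATB1-AS1 lay just outside at 35.0, 34.8 and 34.7 RPM.

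**Figure D1:**
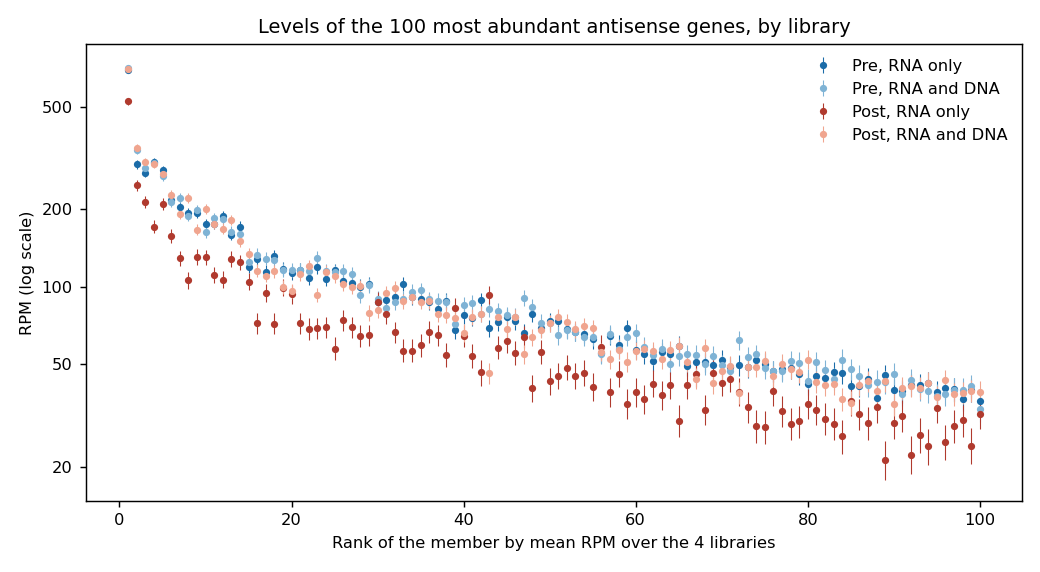
Level of each of the 100 antisense genes (y axis, RPM on a log scale, bars are exact 95% Poisson intervals) against its rank by mean RPM (x axis), in each of the 4 libraries. Points of Post, RNA only lie below the others for 91 of the 100 members, and HDAC2-AS2 at rank 1 stands apart. The share of all genes lowest in that library was not computed. The median log2 ratio of all genes tested, Post over Pre in RNA only, was -0.49.

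Together the members held 88213 counts, or 0.941% of all counts (95% interval 0.934 to 0.947), in Pre, RNA only. With DNA profiled the Pre share was 0.962% (0.956 to 0.969). The Post shares were 0.670% (0.664 to 0.677) for RNA only and 0.924% (0.918 to 0.930) with DNA profiled. Post, RNA only was the lowest of the 4 libraries for 91 members and the highest for 3. The share of all genes lowest there was not computed, and the median gene was lower there too, as given below. In that library 34.8% of all counts fell on 6 clone-named genes (FP236383 and FP671120), against 10.7% to 15.8% in the other libraries. With those genes taken out of the totals the members' share was 1.03% in Post, RNA only and 1.07% to 1.10% in the others. Total counts ranged from 6368721 to 10089552, the lowest being Post, RNA only. The ratios below are therefore given relative to the median log2 ratio of the 5638 genes whose mean RPM reached that of the lowest member (after adding 1 RPM), which was -0.49 for Post over Pre in RNA only, -0.09 in RNA and DNA, 0.02 for DNA profiling in Pre and 0.43 in Post. All 11 listed markers of primed cells were found at 10 RPM or more, with a summed level of 2340 to 3148 RPM, the 4 naive markers summed to 4.4 to 6.4 RPM, the 5 of endoderm to 3.1 to 5.4 RPM, the 4 of mesoderm and primitive streak to 1.7 to 2.7 RPM and both of neuroectoderm to 0.9 to 2.2 RPM. The 4 fibroblast markers summed to 28.1 to 40.6 RPM, with COL1A2 at 20.3 to 29.6 RPM and COL1A1 at 7.38 to 10.8 RPM, while DCN and LUM stayed under 1 RPM.

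The order of RT and tagmentation was compared first in the RNA only libraries. Relative to the median of these 5638 genes, here called all genes tested, the members had a median of -0.01, quartiles of -0.19 and 0.19 and an SD of 0.27. Genes are not replicates, so these values describe the spread over members in 1 pair of libraries. The median depends on the genes it is set against, and was -0.13 against all genes of at least 1 RPM and -0.27 against all genes with a count. At least 2-fold apart were 0 of the 100 members, against 1.37% of all genes tested that were higher in Post and 0.0355% that were lower. At 1.5-fold, DSG2-AS1 and MIF-AS1 were higher, 2 of 100 against 4.29% of all genes, and 0 were lower against 1.06%. DSG2-AS1 runs against the gene of the desmosomal cadherin desmoglein 2. It stood at 67.9 RPM in Pre and 82.6 RPM in Post without DNA profiling, a relative log2 ratio of 0.76 (0.61 to 0.94). With DNA profiling it stood at 71.5 and 75.7 RPM, a ratio of 0.17 (0.02 to 0.32).

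In the RNA and DNA libraries the spread was narrower, with a median of 0.03, quartiles of -0.08 and 0.14 and an SD of 0.20. Again 0 members were 2-fold apart, against 0.106% of genes higher and 0.0887% lower. At 1.5-fold 0 members were higher, against 0.461%, and MIF-AS1 and THSD4-AS1 were lower, 2 of 100 against 1.79%. The 2 pairs have no library in common, and 0 members were 2-fold higher in both (0.106% of genes) or 2-fold lower in both (0%). The counting interval lay wholly above the median in both pairs for 8 of 100 members, against 6.54% of all genes tested, and wholly below in both for 8, against 6.03%. It lay on opposite sides in the 2 pairs for 11 members, against 14.8%. Among the members higher in both, DHRS4-AS1, which spans the gene of a short-chain dehydrogenase, had relative log2 ratios of 0.33 (0.07 to 0.58) and 0.29 (0.08 to 0.52). Among those lower in both, KDM4A-AS1, against the gene of a histone lysine demethylase, had -0.31 (-0.59 to -0.06) and -0.41 (-0.62 to -0.22). Both differences are under 1.5-fold. LAMTOR5-AS1, A2ML1-AS1, PTPRG-AS1 and SUCLG2-AS1 had positive relative log2 ratios in both pairs too, between 0.18 and 0.35, and the interval of SUCLG2-AS1 in RNA only reached -0.01. CCDC18-AS1, GABPB1-AS1, ZFHX2-AS1 and KIF9-AS1 had -0.23 to -0.47. GABPB1-AS1, whose partner encodes a subunit of a GA-binding transcription factor, stood at 119 RPM in Pre RNA only, 129 RPM in Pre RNA and DNA, 69.1 RPM in Post RNA only and 93.0 RPM in Post RNA and DNA. Both of its Post libraries lay under both Pre libraries. Over the 100 members the ratios of the 2 pairs were barely related (Pearson r = -0.14, Spearman rho = -0.03), as over all 5638 genes (r = -0.04), and genes are not independent replicates.

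**Figure D2:**
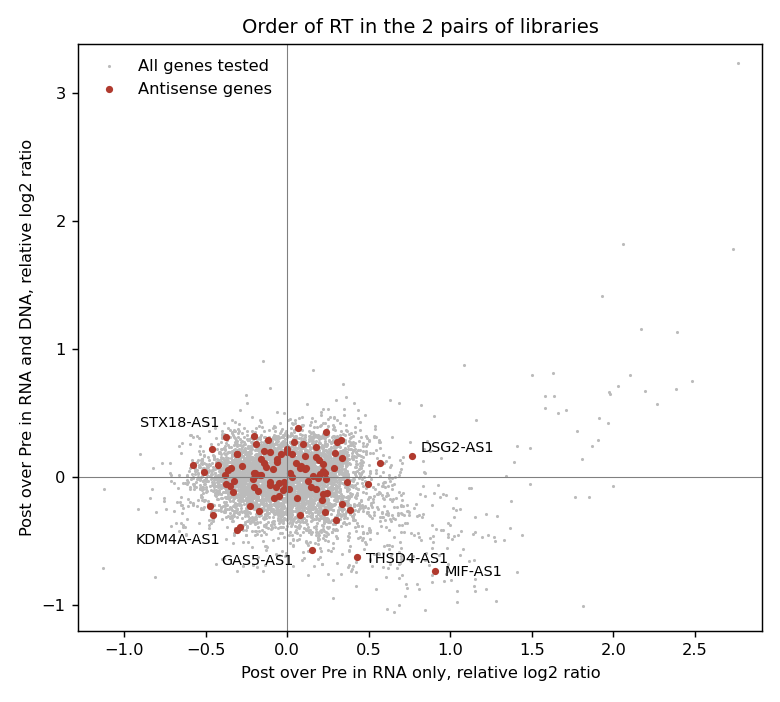
Relative log2 ratio of Post over Pre in the RNA only libraries (x axis) and in the RNA and DNA libraries (y axis), for the 100 antisense genes (red) over all 5638 genes tested (grey). Most members lie within the cloud around 0, and MIF-AS1 and THSD4-AS1 lie to the lower right, higher in Post in 1 pair and lower in the other.

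MIF-AS1 differed most between the libraries. It lies on chromosome 22 from 23894426 to 23898930 and overlaps the exons of MIF, the gene of macrophage migration inhibitory factor, over 687 bases. Its exons also overlap exons of other genes on its own strand over 904 bases, where strand would not separate the reads. MIF-AS1 stood at 68.9 RPM (RNA only) and 82.0 RPM (RNA and DNA) in Pre and at 92.6 and 46.1 RPM in Post. MIF stood at 74.0 and 90.6 RPM in Pre and at 104 and 50.1 RPM in Post. Both genes were highest in Post without DNA profiling and lowest in Post with it. The relative log2 ratio of Post over Pre was 0.91 (0.76 to 1.08) for MIF-AS1 in RNA only and -0.73 (-0.92 to -0.58) in RNA and DNA, and for MIF it was 0.97 and -0.76. MIF-AS1 took 48.2%, 47.5%, 47.0% and 47.9% of the counts of the pair in the 4 libraries, a range of 1.16 percentage points, while each of these shares has a counting interval of 2.52 to 3.19 points to either side. Whether the same reads were counted for both genes was not tested.

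In the Pre libraries the levels with and without DNA profiling lay close together. The median over members was 0.02, with quartiles of -0.06 and 0.08 and an SD of 0.11, the narrowest of the 4 comparisons. The counting interval of 87 members included the median, against 79.9% of all genes tested. At 2-fold 0 members were higher (0% of all genes) and 0 lower (0.0177%), and at 1.5-fold 0 were higher (0.0177%) and 0 lower (0.0355%). The highest was THSD4-AS1, inside the gene of a thrombospondin type domain protein, with 66.3 RPM without and 90.3 RPM with DNA profiling, a relative log2 ratio of 0.42 (0.27 to 0.58). The lowest was TPT1-AS1, with 103 and 89.9 RPM and a ratio of -0.21 (-0.35 to -0.07).

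In the Post libraries the members spread more widely around a median of 0.06, with quartiles of -0.14 and 0.21 and an SD of 0.30. This median was 0.15 against all genes of at least 1 RPM and 0.25 against all genes with a count. MIF-AS1 was more than 2-fold lower with DNA profiling, at a relative log2 ratio of -1.42 (-1.62 to -1.26), and was the only member to pass 2-fold in any of the 4 comparisons, 1 of 100 against 2.54% of all genes. At 2-fold 0 members were higher, against 0.0177%. At 1.5-fold STX18-AS1 was higher, against 0.497% of genes, and MIF-AS1 and THSD4-AS1 were lower, against 6.14%. STX18-AS1 starts 215 bases from STX18, the gene of a syntaxin of the endoplasmic reticulum, and stood at 193, 189, 106 and 221 RPM. Its relative log2 ratio with DNA profiling was 0.63 (0.50 to 0.75) in Post and -0.05 (-0.15 to 0.04) in Pre. THSD4-AS1, at 63.7 RPM without and 54.7 RPM with DNA profiling in Post, had -0.64 (-0.84 to -0.47). This comparison and that of Post over Pre in RNA only share the library Post, RNA only. In all 4 comparisons 96 members stayed under 1.5-fold. The share of all genes tested that did so in all 4 was not computed, so this count shows no trait of the members.

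**Figure D3:**
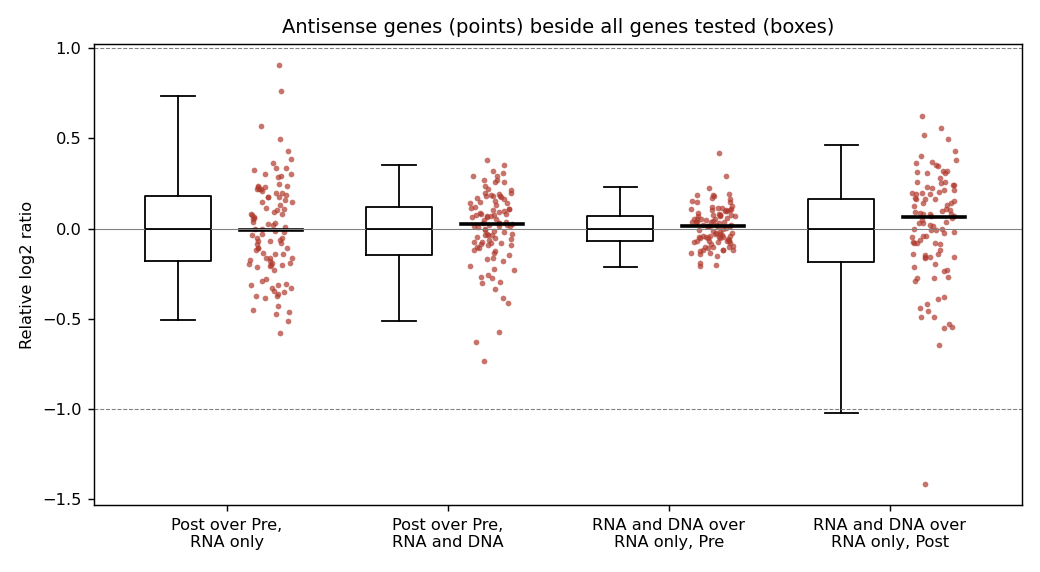
Relative log2 ratio (y axis) of the 100 antisense genes (points, with the median as a bar) beside all 5638 genes tested (boxes from the lower to the upper quartile, whiskers over the central 95%), for the 4 comparisons of libraries. The point beyond the dashed line of 2-fold is MIF-AS1, and the Pre libraries with and without DNA profiling differ least.

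The 653 antisense symbols of lower level that reached 1 RPM on average showed medians of 0.15 for Post over Pre in RNA only and 0.13 in RNA and DNA, where the members had -0.01 and 0.03. The 131 other lncRNA genes tested had -0.02 and 0.10. These are medians of sets at different levels and were not tested against each other. Among the members, the relative log2 ratio went with the length of the gene span to a small degree. The Spearman rho was 0.35 for Post over Pre in RNA and DNA and 0.30 for DNA profiling in Post, and -0.09 and -0.10 in the other comparisons, against 0.54, 0.56, -0.31 and -0.29 over the 5302 genes tested that have a span. The 33 members of the longest spans (144 kb to 972 kb) had a median of 0.14 for DNA profiling in Post, and the 33 of the shortest (1.47 kb to 59.3 kb) -0.08.

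The members were then set against their sense genes. Per kb of merged exons, the antisense gene stood above its sense gene in 60 of 100 pairs, with a median ratio of 1.54 and a range from 0.0865 to 1066. Per kb of gene span it did so in 50 pairs, with a median ratio of 0.997, and by RPM with no length in 50 pairs. The members were chosen for a high RPM and the sense genes were not, which raises these ratios. Whether counts scale with the length of exons or span was not tested. Where the sense gene lay inside the member, 14 of 18 members were above it per kb of exon. Of the 5 highest ratios, 4 had a sense gene with a mean under 10 RPM. ABHD15-AS1, with 0.187 kb of annotated exons in a span of 147 kb, had 418 RPM per kb of exon against 0.392 for ABHD15. LIX1-AS1 had 22.3 against 0.131 and AQP4-AS1, against the gene of a water channel of astrocytes, 5.84 against 0.102. ALOX12-AS1 had 41.7 against 1.21. A2ML1-AS1 had 267 against 4.03, with a mean of 28.8 RPM for A2ML1 and 0.452 kb of exons in the member. HDAC2-AS2 had 74.5 RPM per kb of exon and HDAC2 11.3, a ratio of 6.57 that became 0.590 per kb of span. The 3 lowest ratios are named after their values were seen. PCBP1-AS1, which spans the gene of a poly(C)-binding protein, had 3.21 RPM per kb of exon and PCBP1 37.1. SUCLG2-AS1 had 3.88 and SUCLG2, a subunit of succinyl-CoA ligase, 44.6. PTPRG-AS1 had 17.4 and PTPRG, a receptor tyrosine phosphatase, 161. Over the 100 pairs the levels per kb of exon were weakly related (Spearman rho = 0.28), the pairs sharing the same 4 libraries. The sense gene had a mean under 10 RPM in 13 pairs, and the other 87 pairs were used for the ratios.

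Between conditions the difference in relative log2 ratio, antisense minus sense, had a median over the 87 pairs of -0.020 for Post over Pre in RNA only, -0.0023 in RNA and DNA, 0.023 for DNA profiling in Pre and 0.011 in Post. The antisense gene was the higher of the pair in 41, 42, 57 and 46 pairs. In the 15 pairs with a shared start the medians were -0.25, 0.079, 0.13 and 0.31, and the antisense gene was the higher in 4, 10, 11 and 11 of them. In the other 72 pairs the medians were 0.0051, -0.015, 0.019 and -0.0059. The difference was under 0.5 in 79, 85, 87 and 78 of the 87 pairs. The share of unrelated pairs of genes under 0.5 was not computed. Over all genes tested the relative log2 ratio had an SD of only 0.33, 0.23, 0.11 and 0.35, so these counts show no trait of the pairs. Antisense and sense ratios went together over the 87 pairs, with a Pearson r of 0.49, 0.53, 0.44 and 0.54 in the 4 comparisons. In the 72 pairs whose starts lie further apart r was 0.66, 0.54, 0.55 and 0.74. In the 15 pairs with a shared start it was -0.20, 0.54, 0.00 and -0.07. All points of a comparison share the same 2 libraries, and where the genes overlap they can share reads. For the order of RT, the 5 members with the largest difference of 1 sign from their sense gene, by the smaller of the 2 values, are as follows. A2ML1-AS1 lay above A2ML1, with differences of 0.50 and 0.35. GAS5-AS1, OR2A1-AS1, COX10-AS1 and LMCD1-AS1 lay below their sense genes, with differences of -0.24 to -0.53. By the same rule 0 of 86 sense genes were 2-fold higher or lower in either pair for the order of RT. Of all genes tested, 0.0355% to 1.37% were, per pair and direction. TPT1 and MIF were 2-fold lower with DNA profiling in Post, 2 of 86 against 2.54% of all genes tested.

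**Figure D4:**
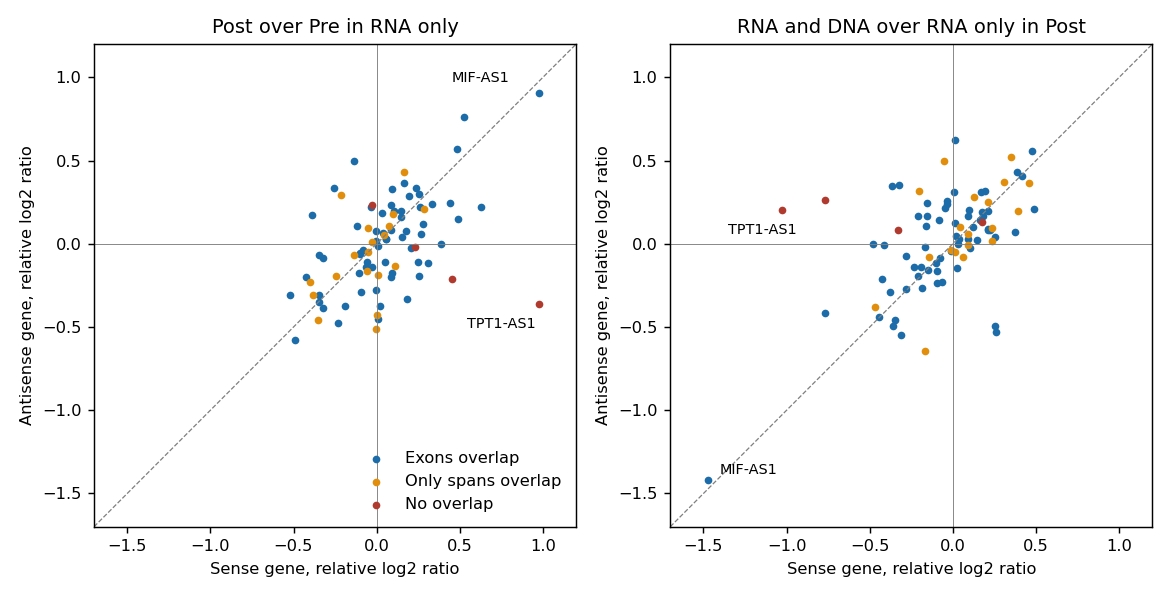
Relative log2 ratio of the antisense gene (y axis) against that of its sense gene (x axis) in 87 pairs, for Post over Pre in RNA only (left) and for DNA profiling in Post (right), by whether exons overlap, only spans overlap or neither. The dashed line marks equal ratios, MIF-AS1 lies on it in both panels, and TPT1-AS1, which does not overlap TPT1, lies far from it in both.

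TPT1-AS1 did not follow TPT1 over the libraries. TPT1, the gene of translationally controlled tumor protein, stood at 158 RPM (RNA only) and 172 RPM (RNA and DNA) in Pre and at 223 and 147 RPM in Post. TPT1-AS1, which starts 61 bases away on the other strand of chromosome 13, stood at 103 and 89.9 RPM in Pre and at 56.5 and 87.8 RPM in Post. The library with the most TPT1 was thus the one with the least TPT1-AS1. The relative log2 ratio of Post over Pre in RNA only was -0.36 (-0.55 to -0.19) for TPT1-AS1 and 0.98 for TPT1, and that of DNA profiling in Post 0.20 (0.02 to 0.38) and -1.03. TPT1-AS1 took 39.3% (37.4 to 41.3) of the counts of the pair in Pre, RNA only and 20.2% (18.4 to 22.2) in Post, RNA only. Exons of TPT1-AS1 lie under exons of other opposite-strand genes over 884 bases, so without strand its counts can hold their reads. TPT1 has processed copies elsewhere in the genome. The methods for scMTR-seq data keep uniquely mapped reads, so reads that fit several places would not be counted.

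The ratio of antisense to sense counts was then followed over the 4 libraries in each pair, as the highest minus the lowest log2 ratio. The median over the 87 pairs was 0.23, and 16 pairs stayed within 0.1. The spread of unrelated pairs of genes of like level was not computed, so these values show no trait of antisense and sense pairs. The pairs named next were chosen after their values were seen. The steadiest was TTN-AS1 with TTN, the gene of the giant muscle protein titin, at 0.03. TTN-AS1 stood at 175, 163, 130 and 201 RPM and TTN at 182, 171, 133 and 208 RPM, so that TTN-AS1 took 48.9% to 49.4% of the counts of the pair in every library. Their exons overlap over 14004 bases. CYYR1-AS1 with CYYR1 (0.03, 51.4% to 52.0%), TMEM161B-AS1 with TMEM161B (0.04, 61.2% to 61.8%), VCAN-AS1 with VCAN (0.04, 38.2% to 38.9%), USP3-AS1 with USP3 (0.04, 34.9% to 35.6%) and JAKMIP2-AS1 with JAKMIP2 (0.04, 35.8% to 36.5%) were as steady. CYYR1-AS1 shares 103044 bases of span with CYYR1 but no annotated exon. TMEM161B-AS1 has a shared start, and its exons overlap those of TMEM161B. In each of these 6 pairs the shares of the 4 libraries differed by less than the distance from a share to the bound of its counting interval.

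The median spread was 0.49 in the 15 pairs with a shared start, where it ran from 0.04 for TMEM161B-AS1 to 1.35, and 0.21 in the other 72, where it ran from 0.03 to 0.80. This difference was not tested. It was 0.75 in the 4 pairs without overlap, at 1.35 for TPT1-AS1, 1.09 for UBL7-AS1, 0.42 for UBA6-AS1 and 0.26 for SUCLG2-AS1. UBL7-AS1, across from the gene of a ubiquitin-like protein, stood at 48.2, 51.6, 29.4 and 47.9 RPM and UBL7 at 11.1, 10.8, 10.8 and 8.33 RPM. Exons of UBL7-AS1 lie under exons of other opposite-strand genes over 2260 bases. Of the 18 pairs with a spread above 0.5, 7 had a shared start. PLCG1-AS1 with PLCG1, a phospholipase, reached 0.80 with overlapping exons, as PLCG1-AS1 kept 81.4 to 89.6 RPM while PLCG1 ranged from 42.1 to 68.2 RPM. The sense genes of the 15 pairs had a lower median level, 44.9 RPM against 84.6 RPM in the other 72, and the part of this in the spread was not tested.

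**Figure D5:**
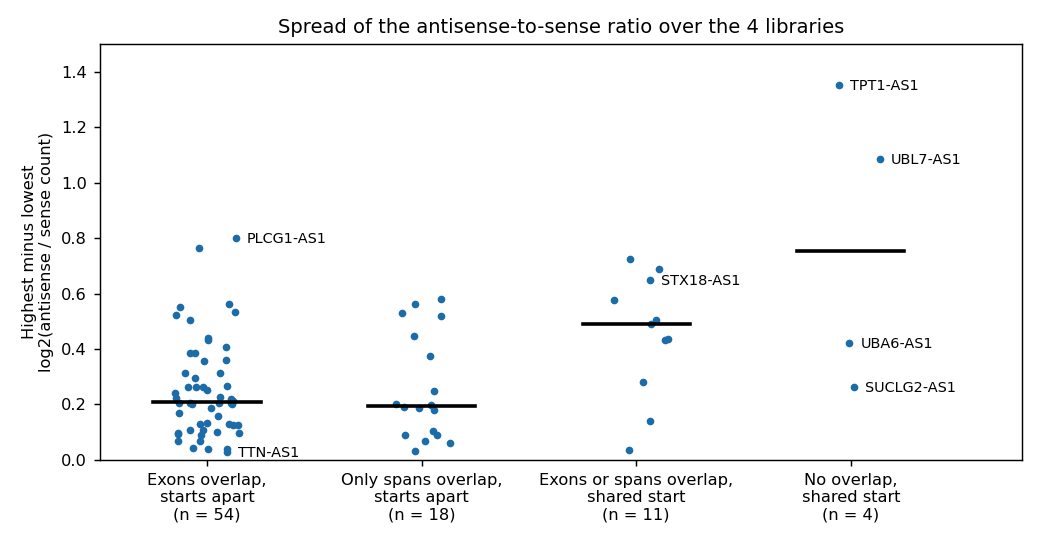
Highest minus lowest log2 ratio of antisense to sense counts over the 4 libraries (y axis), 1 point per pair, by arrangement of the pair (x axis), with the median as a bar. Overlapping pairs reach down to 0.03 with distant starts and to 0.04 with a shared start, where the median is 0.49, and the 4 pairs without overlap lie between 0.26 and 1.35.

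By the kind of sense gene, lists matched on the symbol hold 19 of the members. The transcription factor list (ZKSCAN7-AS1, ZNF337-AS1 and ZNF451-AS1) stayed between -0.14 and 0.24 in all comparisons. A match on symbols misses some, and GABPB1-AS1, at -0.29 and -0.39 for the order of RT, is not in it. The list of chromatin and DNA replication or repair held HDAC2-AS2, KDM4A-AS1, MCM3AP-AS1 and PRC1-AS1 and stayed between -0.41 and 0.32, although MCM3AP is a partner of an MCM protein that acts in mRNA export and PRC1 is a cytokinesis protein that shares its name with the Polycomb complex. The 6 members against genes of protein turnover and transport (STX18-AS1, USP2-AS1, PSMA3-AS1, USP3-AS1, UBA6-AS1 and RNF213-AS1) ranged from -0.38 to 0.63. Those in the mitochondrial and metabolic list (SLC16A1-AS1, COX10-AS1 and SLC7A11-AS1) ranged from -0.49 to 0.57. This list takes in any symbol that begins with SLC, so its name need not hold for SLC16A1 and SLC7A11. Those against signalling genes (PTPRG-AS1, FGD5-AS1 and MAP3K20-AS1) ranged from -0.49 to 0.37. In these lists 0 members passed 2-fold, against 0% to 2.54% of all genes tested per comparison and direction. STX18-AS1 alone passed 1.5-fold, against 0.0177% to 6.14%. At such shares a set of 19 would hold few or none, so these counts show no trait of the lists.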

How the data were processed

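The deposited values are whole-number counts per gene symbol, made by the authors from reads aligned to GRCh38. The submitters' processing notes name STAR 2.7.11b, Bowtie 1.3.1, Bowtie2 2.5.3, SAMtools and Trim Galore 0.6.10. The paper's methods keep uniquely mapped reads and describe removal of duplicates by position and molecular identifier for the single-cell data. The annotation and the strand setting of the counting are not given in the sources used here. The column of each library was taken by its RT index, and 60 other barcode columns were not used. Counts were divided by column totals (6368721 to 10089552) to give RPM. Ratios are on the log2(RPM + 1) scale, with a pseudocount of 1 RPM. Higher or lower means at least 2-fold relative to the median of 5638 genes.

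Members and lists were chosen with earlier results of these data known. Named are the 10 most abundant members, up to 5 per direction in both pairs and by the difference of the pairs, up to 3 per direction for DNA profiling, the 5 pairs highest per kb, 5 apart from the sense gene in both pairs, members in the lists, and 3 symbols on either side of rank 100. The values of 1 named member are not reported here. The size rule was tested on simulated counts. Intervals are exact (Poisson for levels, Clopper-Pearson for shares, conditional binomial for ratios). Places and exon lengths came from GENCODE release 44, promoters from RefSeq (GRCh38.p14). Alternatives were other library sizes (TMM of edgeR, median-of-ratios of DESeq2), centring, filters, pseudocounts, folds, thinning and choices of members. Python 3.11.15, pandas 2.3.3, scipy 1.17.1, R 4.3.3, edgeR 4.0.16 and DESeq2 1.42.0 were used.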

Additional observations from a re-analysis of the deposited data

Results flagged for a closer look

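For 11 members the ratio of Post over Pre lay on opposite sides of the median of all genes in the 2 pairs of libraries, with both counting intervals clear of it. By the same rule this held for 14.8% of the 5638 genes tested. Each pair is 1 library against 1, and the difference between the pairs was not tested. The relative log2 ratio in RNA only minus that in RNA and DNA was 1.64 for MIF-AS1, 1.06 for THSD4-AS1, 0.64 for IDI2-AS1, 0.64 for LANCL1-AS1, 0.55 for FGD5-AS1, 0.50 for RUSC1-AS1, 0.39 for PSMA3-AS1 and 0.35 for STARD4-AS1. It was -0.68 for STX18-AS1, -0.68 for MAGI1-AS1 and -0.52 for NPSR1-AS1.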

How the results depend on the processing

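Of 269 values recomputed under an alternative, 256 stayed within 0.1 on the log2 scale (medians) or 1.5 times (counts) of the value reported, and 13 moved. The limit for medians was set after the data were seen. Other library sizes, pseudocounts, thinning, the 50 highest members and the choice by the lowest of the 4 values, which shares 93 members, moved none. Library sizes cancel out of ratios set relative to their own median, apart from the pseudocount, so those values could hardly move. Medians of antisense minus sense cannot change with the centring or the genes tested. Such values are among the 256 and are no sign of robustness. Without setting ratios relative to the median, the medians became -0.49 and -0.058 for Post over Pre in RNA only and in RNA and DNA and 0.49 for DNA profiling in Post, with 1 member lower in the first, and 1 higher and 0 lower in the last. Against genes of at least 1 RPM the medians were -0.13 for Post over Pre in RNA only and 0.15 for DNA profiling in Post, and against all genes with a count -0.27, -0.049 (Post over Pre in RNA and DNA) and 0.25. For the 14 members with no exon under an opposite-strand exon they were -0.092, 0.11 and 0.16, with 0 members lower for DNA profiling in Post and a median antisense minus sense of -0.030 there. That count of 0 was fixed by the choice of set, which leaves out MIF-AS1, the only member lower there. At 1.5-fold, 2 members were higher for Post over Pre in RNA only and 2 lower in RNA and DNA, and 1 was higher and 2 lower for DNA profiling in Post. Lowering the sense gene minimum to 1 RPM, an alternative chosen after seeing the data, moved no median. No paired analysis was possible because each condition is 1 library. Reads counted for both genes of a pair, a library effect and the effect of the protocol cannot be told apart here.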
